A study of Mus musculus with 12 samples.

Results

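The 44 genes described here code for basement membrane proteins, other collagens, matricellular proteins, cell-surface heparan sulfate proteoglycans, and the enzymes and inhibitors that act on them, outside the perineuronal nets. They were picked by gene symbol with a rule that used no measured value, but with earlier results of these data known. Their shares set beside those of all probe sets below are therefore descriptive. They are 44 of 19937 genes that had a probe set of their own. Each of the 44 was read by exactly 1 probe set. RNA of GFP+ cells sorted from C57BL6 mouse cortex was hybridised to 12 Affymetrix gene arrays, 3 biological replicates (A, B and C) in each of 4 groups. IN P10 and IN P0 were interneurons at postnatal days 10 and 0 from Nkx2-1Cre;RCE:LoxP mice, and Pyr P12 and Pyr P0 were pyramidal cells at postnatal days 12 and 0 from NexCre;RCE:LoxP mice. All 4 groups carried a Cre driver and the RCE reporter, which makes GFP once Cre has acted. No group was without them. Nkx2-1 is active in progenitors of the medial ganglionic eminence, whose offspring include PV+ and SST+ interneurons and also early oligodendrocyte precursors, so GFP in this line does not mark 1 cell class alone. Nex (Neurod6) is active in young pyramidal cells. The descriptions name somatosensory cortex for the pyramidal cells and cortex without an area for the interneurons. Population and area therefore cannot be told apart at any age. The older ages differ by 2 days, so population, area and age cannot be told apart in the older pair. Whether an array held 1 animal or several is not given in the sources used here, so the p-values measure the spread between these 3 samples a group.

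The basement membrane is a thin sheet in which laminin trimers and a collagen IV network are linked by nidogens and by the heparan sulfate proteoglycans perlecan and agrin. In the cortex it lies under the pia and around vessels, and most neurons lie away from it. Matricellular proteins such as SPARC and the thrombospondins are secreted into the matrix without building it, and change how cells attach and signal. Several of them are known as signals for synapse formation in the rodent brain. Glypicans and syndecans hold heparan sulfate chains at the cell surface, where the chains bind growth factors and synaptic partners.

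Values are log2 RMA levels (RMA corrects, quantile-normalises and summarises the probes of each probe set), and a difference of 1 is a 2-fold difference. The background level, set by 1208 probe sets of olfactory and vomeronasal receptor genes, of which 95% lie below it, lay between 7.13 and 7.45 over the 12 arrays. Of the 44 genes, 33 were above it in all 4 groups, 9 in some groups and 2, Dcn and Bgn, in none. A group counts as above background where at least 1 of its arrays is. The SD between the 3 arrays of a group had a median of 0.081 over genes and groups and a highest value of 0.39. All 8 interneuron markers tested were higher in interneurons at both ages, and 6 of 7 pyramidal markers were lower. These markers also moved with age in the population they do not mark. Of the 8 interneuron markers, 7 fell in pyramidal cells (median log2 difference -1.56), among them Dlx1, with means of 7.34 in Pyr P12 and 9.81 in Pyr P0. Of the 7 pyramidal markers, 3 fell and 1 rose in interneurons. The 3 were Neurod6 (means 6.29 in IN P10, below background, and 9.85 in IN P0), Tbr1 (7.45 in IN P10 and 10.14 in IN P0) and Neurod2 (9.08 in IN P10 and 10.59 in IN P0), and Nrgn rose. In sorted populations, fewer cells of a type and less RNA per cell cannot be told apart. An exact permutation test of 3 arrays against 3 cannot go below a 2-sided p of 0.1, so each difference below is tested in limma's fit across all genes, with Benjamini-Hochberg adjustment over 22961 probe sets. A gene is called where the adjusted p is under 0.05 and the fold over 2.

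Of the 44 genes, 21 were called in at least 1 of the comparisons and 23 in none. The share of all probe sets called in at least 1 comparison was not counted, so the 21 cannot be read as many or few. With age in interneurons (IN P10 against IN P0), 7 genes rose and 4 fell, beside 4.19% of all probe sets called higher and 2.85% called lower. With age in pyramidal cells (Pyr P12 against Pyr P0), 7 rose and 5 fell, beside 5.68% and 3.48% of all probe sets. In the older pair (IN P10 against Pyr P12), 8 were higher and 2 lower, beside 2.65% and 2.91%. In newborn cells (IN P0 against Pyr P0), 8 were higher and 4 lower, beside 1.9% and 1.74%. In either direction, 11 of the 44 genes were called with age in interneurons (7.04% of all probe sets), 12 with age in pyramidal cells (9.16%), 10 in the older pair (5.56%) and 12 at P0 (3.64%). The median difference over the 44 genes, on the log2 scale, was 0.22, 0.00, 0.12 and -0.03 in these comparisons, beside 0.00, 0.06, -0.07 and -0.00 over all probe sets. Calls thus ran in both directions in each comparison. Of these calls, 3 passed 2-fold only through values below background (Col12a1 with age in pyramidal cells, Gpc3 in the older pair and Adamts5 at P0). With each value below background set to that level, 6 genes rose in pyramidal cells, 1 was lower in the older pair and 7 were higher at P0.

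**Figure D1:**
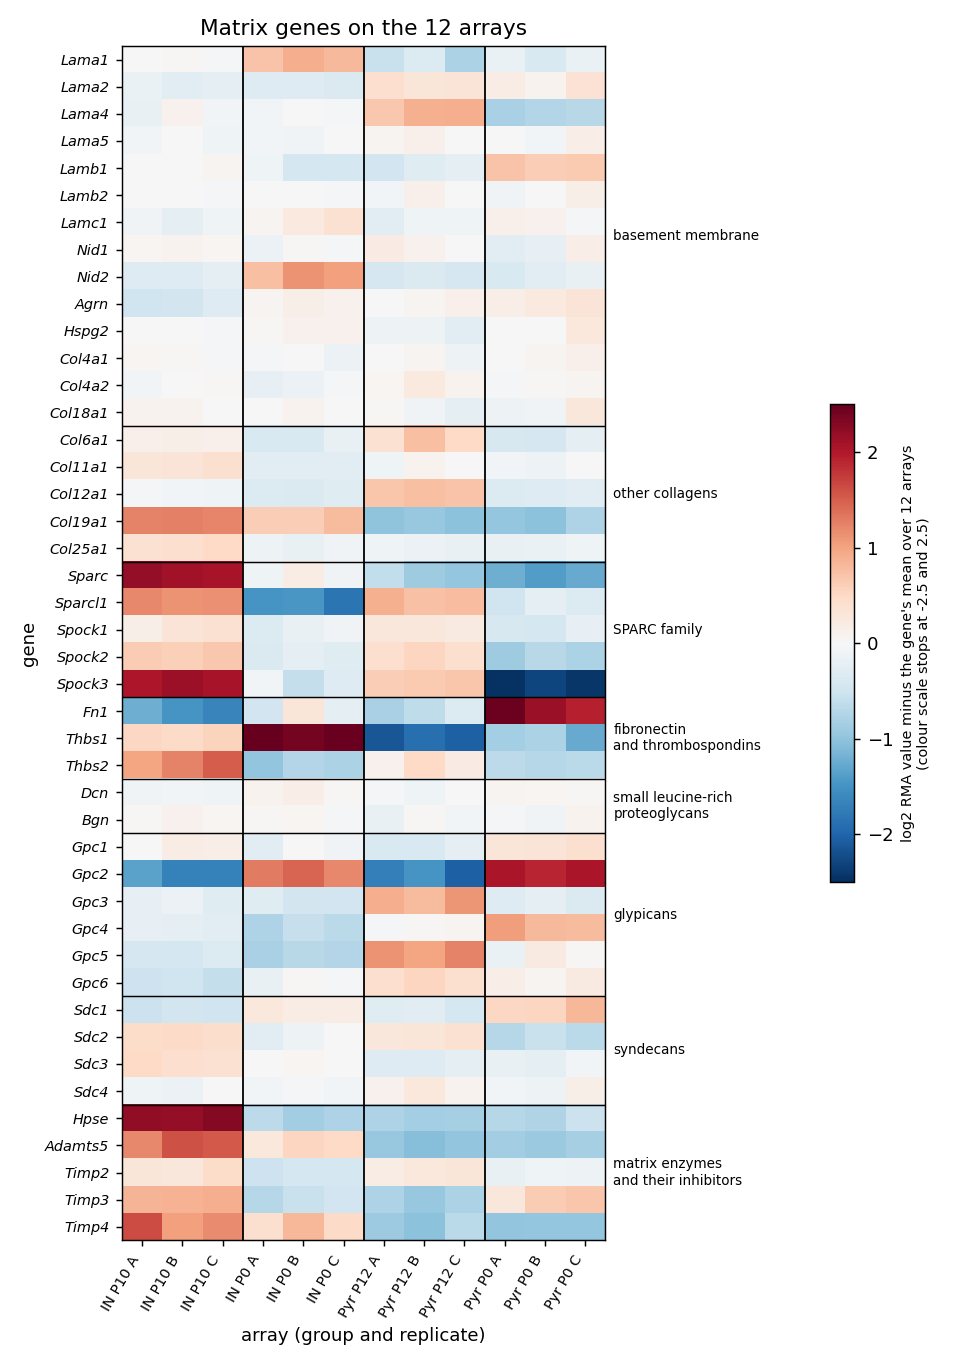
Each row is a gene and each column an array, with replicates A to C of IN P10, IN P0, Pyr P12 and Pyr P0 from left to right; colour gives the log2 RMA value minus that gene's mean over the 12 arrays. The widest ranges between group means are those of Thbs1 (4.48), Spock3 (4.47), Gpc2 (3.74), Fn1 (3.64), Sparc (3.41) and Hpse (3.06, with 3 groups below background), while Col4a1, Col4a2, Lama5, Lamb2 and Col18a1 stay pale on all 12 arrays.

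In the SPARC family, 3 of 5 genes rose with age in interneurons, 3 rose in pyramidal cells and none fell in either. Beside this, 4.19% of all probe sets rose and 2.85% fell in interneurons. In pyramidal cells 5.68% of all probe sets rose and 3.48% fell. The median age difference over the 5 genes was 2.11 in interneurons and 1.16 in pyramidal cells (log2). Sparc, which codes for the collagen-binding matricellular glycoprotein osteonectin, stood out in interneurons. It read 11.97, 11.87 and 11.83 on the IN P10 arrays, 9.68, 9.97 and 9.69 on the IN P0 arrays, 9.16, 8.90 and 8.81 on the Pyr P12 arrays, and 8.56, 8.37 and 8.52 on the Pyr P0 arrays. No value of one group overlapped another, and all 6 interneuron values lay above all 6 pyramidal values. The rise in interneurons was 2.11 ± 0.10 (log2, SE) or 4.32-fold (limma, adjusted p = 1.02e-09), and the change in pyramidal cells was 0.47 ± 0.10 (adjusted p = 0.000935), which is 1.39-fold and not called. IN P10 exceeded Pyr P12 by 2.94 or 7.65-fold (adjusted p = 3.91e-11), and IN P0 exceeded Pyr P0 by 1.30 or 2.46-fold (adjusted p = 2.1e-07).

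The window from 250 bases before to 50 bases after the Sparc start (RefSeq, GRCm38.p6, chr11:55420031-55420330, minus strand) is shown because Sparc carried the largest interneuron difference of the family at the older ages. Capitals mark E-boxes, letters CAGNTG, the motif of basic helix-loop-helix factors. The motifs searched on both strands were the GC box (letters GGGCGG), the CCAAT box (as named), the TATA box (letters TATAAA), the E-box and the AP-1 site (letters TGANTCA), and the window held 3 E-boxes and none of the other 4. Matches of different motifs were counted separately. RefSeq windows were found for 31 of the 44 genes.
Sparc: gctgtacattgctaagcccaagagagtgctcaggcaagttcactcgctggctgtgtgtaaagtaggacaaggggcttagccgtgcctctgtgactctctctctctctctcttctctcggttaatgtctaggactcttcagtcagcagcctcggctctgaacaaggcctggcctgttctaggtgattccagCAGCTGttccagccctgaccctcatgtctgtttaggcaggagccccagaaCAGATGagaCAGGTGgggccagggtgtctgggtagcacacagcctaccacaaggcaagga
An E-box occurred in 51.4% of 32851 promoter windows of the same length, a GC box in 35.7%, a CCAAT box in 37.4%, a TATA box in 13.6% and the AP-1 letters in 7.81%, so a match describes the letters and says nothing of a bound factor.

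Sparcl1 codes for hevin, a relative of SPARC that promotes excitatory synapse formation in rodents. Its values were 13.49, 13.41 and 13.43 in IN P10, 10.81, 10.83 and 10.46 in IN P0, 13.17, 13.03 and 13.07 in Pyr P12, and 11.79, 12.04 and 11.96 in Pyr P0. It was high in both older groups and lowest in newborn interneurons, with no overlap between any 2 groups. The rise was 6.68-fold in interneurons (log2 2.74 ± 0.09, adjusted p = 7.95e-11) and 2.23-fold in pyramidal cells (1.16 ± 0.09, adjusted p = 1.58e-07). Newborn interneurons had 2.35-fold less of it than newborn pyramidal cells (log2 -1.23 ± 0.09, adjusted p = 2.62e-07), and in the older pair the difference was 0.35 ± 0.09 and not called.

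The 3 testicans, secreted proteoglycans with a SPARC-like domain, all had higher means in the older cells, and Spock3 moved furthest. Spock3 read 12.28, 12.41 and 12.32 in IN P10, 10.20, 9.66 and 9.94 in IN P0, 10.88, 10.91 and 10.95 in Pyr P12, and 7.79, 7.97 and 7.82 in Pyr P0. The 4 groups did not overlap, and Pyr P0 lay closest to background. The gene rose 5.29-fold with age in interneurons (log2 2.40 ± 0.10, adjusted p = 6.51e-10) and 8.3-fold in pyramidal cells (3.05 ± 0.10, adjusted p = 3.48e-11). It was also higher in interneurons by 2.68-fold at the older ages (adjusted p = 1.06e-07) and by 4.21-fold at P0 (adjusted p = 4.45e-09). Spock2 read 12.80, 12.75 and 12.83 in IN P10, 11.80, 11.94 and 11.86 in IN P0, 12.57, 12.70 and 12.56 in Pyr P12, and 11.28, 11.46 and 11.37 in Pyr P0. Its rise was called in pyramidal cells (log2 1.24 ± 0.06, 2.36-fold, adjusted p = 1.41e-09), while the 0.93 ± 0.06 in interneurons was 1.9-fold and not called. Spock1 was called in no comparison, with group means of 12.49, 12.00, 12.47 and 11.86 in IN P10, IN P0, Pyr P12 and Pyr P0.

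Fibronectin (Fn1), an integrin-binding glycoprotein that cells assemble into fibrils, fell with age in both populations. Its values were 8.04, 7.78 and 7.62 in IN P10, 8.79, 9.56 and 9.03 in IN P0, 8.45, 8.63 and 8.92 in Pyr P12, and 11.72, 11.43 and 11.20 in Pyr P0. The 3 Pyr P0 arrays were far above all others, and the IN P0 arrays overlapped the Pyr P12 arrays. It fell by 1.31 ± 0.19 on the log2 scale in interneurons (2.48-fold lower in IN P10, adjusted p = 4.76e-05) and fell by 2.79 ± 0.19 in pyramidal cells (6.9-fold lower in Pyr P12, adjusted p = 2.5e-08). IN P0 was 5.01-fold lower than Pyr P0 (log2 -2.32 ± 0.19, adjusted p = 4.72e-07). At the older ages the difference of -0.85 ± 0.19 was not called. Of the 7 pyramidal markers, 3 (Neurod6, Tbr1 and Neurod2) also fell in interneurons and 1 (Nrgn) rose. Their part in the fall of Fn1 there was not tested. The SD of 0.39 among the IN P0 arrays was the widest of any of the 44 genes in any group.

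Thrombospondin 1 and thrombospondin 2 are large adhesive glycoproteins known as astrocyte signals for excitatory synapse formation in rodents, and on these arrays their age differences had opposite signs in both populations. Thbs1 read 10.71, 10.66 and 10.75 in IN P10, 12.71, 12.59 and 12.66 in IN P0, 8.05, 8.31 and 8.16 in Pyr P12, and 9.35, 9.40 and 8.93 in Pyr P0. Every interneuron value was above every pyramidal value and every P0 value above the older values of its population. Thbs1 fell by 1.95 ± 0.10 on the log2 scale in interneurons (3.85-fold lower in IN P10, adjusted p = 3.94e-09) and by 1.05 ± 0.10 in pyramidal cells (2.08-fold lower in Pyr P12, adjusted p = 1.15e-06). Without Pyr P12 replicate A, Pyr P0 replicate A or Pyr P0 replicate B, the pyramidal value was -0.99, -0.99 or -0.97 and no longer called. In the same comparison 7 of 8 interneuron markers fell, with a median of -1.56, and their part in the fall of Thbs1 was not tested. Its population differences were 5.79-fold at the older ages (log2 2.53 ± 0.10, adjusted p = 3.08e-10) and 10.8-fold at P0 (3.43 ± 0.10, adjusted p = 6.68e-11), the largest measured P0 difference of the 44 genes.

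Thbs2 read 9.39, 9.64 and 9.91 in IN P10, 7.41, 7.67 and 7.61 in IN P0, 8.50, 8.90 and 8.61 in Pyr P12, and 7.75, 7.69 and 7.73 in Pyr P0. Both newborn groups lay close together just above background, and both older groups lay above them. The rise was 4.25-fold in interneurons (log2 2.09 ± 0.12, adjusted p = 1.1e-08), and in pyramidal cells it was 0.95 ± 0.12, or 1.93-fold, which stayed under the fold threshold (adjusted p = 1.84e-05). The older interneurons exceeded the older pyramidal cells by 0.98 ± 0.12, also not called, and at P0 the difference was -0.16 ± 0.12. The Thbs2 window is shown as the counterpart of a gene whose relative fell (RefSeq, GRCm38.p6, chr17:14694213-14694512, minus strand). Capitals mark 2 CCAAT boxes and 1 TATA box, and none of the other 3 motifs was found.
Thbs2: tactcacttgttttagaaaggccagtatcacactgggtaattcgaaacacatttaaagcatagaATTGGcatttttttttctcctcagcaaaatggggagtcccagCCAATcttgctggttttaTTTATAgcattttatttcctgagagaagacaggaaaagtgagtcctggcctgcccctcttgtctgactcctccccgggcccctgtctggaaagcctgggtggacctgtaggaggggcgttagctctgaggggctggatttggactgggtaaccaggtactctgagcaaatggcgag

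**Figure D2:**
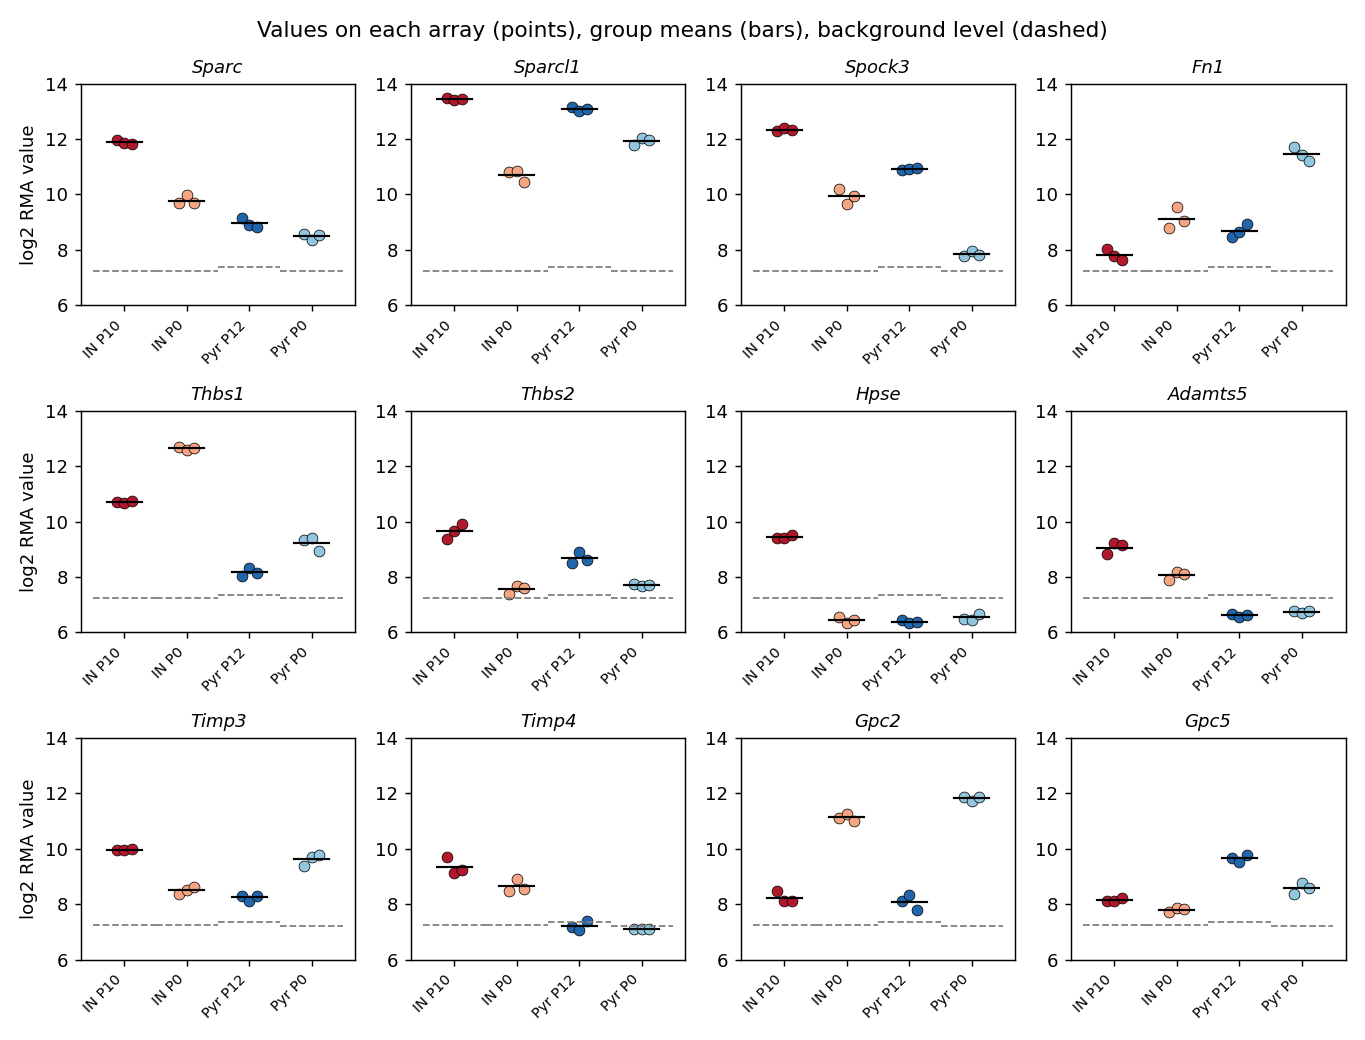
Points are log2 RMA values (y axis) on the 3 arrays of IN P10, IN P0, Pyr P12 and Pyr P0 (x axis) for 12 of the 44 genes, bars are group means, and dashed lines are the background level averaged over the arrays of a group. Sparcl1 and Spock3 are higher in the older group of both populations, Fn1, Thbs1 and Gpc2 are lower in it, Timp3 moves in opposite directions, and Hpse is above background in IN P10 only.

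Among the enzymes and inhibitors, 3 of 5 genes rose and 0 fell with age in interneurons, and 0 rose and 1 fell in pyramidal cells. The shares of all probe sets were 4.19% and 2.85% in interneurons, and 5.68% and 3.48% in pyramidal cells. Heparanase (Hpse), the endoglucuronidase that cleaves heparan sulfate chains, read 9.43, 9.40 and 9.50 in IN P10, 6.55, 6.34 and 6.44 in IN P0, 6.44, 6.35 and 6.37 in Pyr P12, and 6.50, 6.46 and 6.67 in Pyr P0. Of its 12 values, the 3 from IN P10 were above background and the 9 others were not. Set against the background level, Hpse in IN P10 exceeded IN P0 at least 4.63-fold (adjusted p = 2.64e-12) and exceeded Pyr P12 at least 4.22-fold (adjusted p = 1.52e-12). Here and below, an adjusted p printed beside a lower bound is limma's for the measured values and does not test the bound.

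The Hpse window is shown because the gene was above background in 1 group alone (RefSeq, GRCm38.p6, chr5:100719667-100719966, minus strand). Capitals mark its 1 GC box, GGGCGG on either strand, and it held none of the other 4 motifs.
Hpse: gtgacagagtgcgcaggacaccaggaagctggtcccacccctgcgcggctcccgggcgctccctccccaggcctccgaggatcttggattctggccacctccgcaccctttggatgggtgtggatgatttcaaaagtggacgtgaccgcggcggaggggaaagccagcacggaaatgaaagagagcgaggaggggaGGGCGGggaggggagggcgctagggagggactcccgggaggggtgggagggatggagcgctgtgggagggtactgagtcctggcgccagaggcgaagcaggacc

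Adamts5 codes for a secreted aggrecanase. It read 8.82, 9.22 and 9.15 in IN P10, 7.89, 8.16 and 8.13 in IN P0, 6.68, 6.55 and 6.63 in Pyr P12, and 6.76, 6.70 and 6.79 in Pyr P0. All 6 interneuron arrays were above background and none of the 6 pyramidal arrays was. Adamts5 in IN P10 exceeded Pyr P12 at least 3.25-fold (adjusted p = 2.32e-10) and in IN P0 exceeded Pyr P0 at least 1.78-fold (adjusted p = 1.94e-07). The P0 bound is under 2-fold, and with values below background set to that level the difference was 0.83 (log2) and not called. Its rise with age in interneurons was 1.00 ± 0.10 (log2) or 2.01-fold (adjusted p = 1.15e-06), just past the fold threshold. Without IN P10 replicate B or C, or without IN P0 replicate A, it was 0.93, 0.96 or 0.92 and no longer called.

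The 3 tissue inhibitors of metalloproteinases behaved differently from each other. Timp3, which binds to the matrix and also blocks aggrecanases, read 9.94, 9.95 and 9.99 in IN P10, 8.37, 8.53 and 8.60 in IN P0, 8.31, 8.13 and 8.30 in Pyr P12, and 9.37, 9.71 and 9.77 in Pyr P0. The older interneurons and the newborn pyramidal cells were high and the other groups low. Timp3 rose 2.75-fold in interneurons (log2 1.46 ± 0.10, adjusted p = 2.74e-08) and fell by 1.37 ± 0.10 on the log2 scale in pyramidal cells (2.59-fold lower in Pyr P12, adjusted p = 3.53e-08). It was the 1 gene of the 44 called in opposite directions with age, and the difference between the 2 changes was 2.83 ± 0.14 (adjusted p = 7.32e-09). IN P10 was 3.29-fold above Pyr P12 (adjusted p = 6.37e-09), and IN P0 was 2.17-fold below Pyr P0 (adjusted p = 8.41e-07).

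The Timp3 window is shown for this reversal (RefSeq, GRCm38.p6, chr10:86300162-86300461, plus strand). Capitals mark 2 GC boxes and 2 E-boxes, and none of the other 3 motifs was found.
Timp3: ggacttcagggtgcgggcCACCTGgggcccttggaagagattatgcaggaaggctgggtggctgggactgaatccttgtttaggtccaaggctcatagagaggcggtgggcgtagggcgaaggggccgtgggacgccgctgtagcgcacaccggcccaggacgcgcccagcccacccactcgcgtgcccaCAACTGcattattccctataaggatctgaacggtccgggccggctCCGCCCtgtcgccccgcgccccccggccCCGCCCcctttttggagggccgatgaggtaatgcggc

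Timp4 read 9.70, 9.11 and 9.25 in IN P10, 8.49, 8.91 and 8.56 in IN P0, 7.16, 7.06 and 7.39 in Pyr P12, and 7.09, 7.11 and 7.11 in Pyr P0. All interneuron arrays lay above all pyramidal arrays, and of the pyramidal arrays only Pyr P12 replicate C passed its background level. With values below background set to that level, Timp4 was higher in IN P10 cells than in Pyr P12 by 1.97 (log2, adjusted p = 6.26e-11), where the measured values gave 2.15 ± 0.14 with 2 of 3 Pyr P12 arrays below background. It was at least 2.68-fold higher in IN P0 cells than in Pyr P0 (adjusted p = 1.54e-06). The age differences of 0.70 in interneurons and 0.10 in pyramidal cells were not called. Timp2, with group means of 12.16, 11.34, 12.06 and 11.67 in IN P10, IN P0, Pyr P12 and Pyr P0, was called in no comparison, although its 0.82 ± 0.06 in interneurons came near the fold threshold (1.76-fold, adjusted p = 7.24e-08).

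Of the 6 glypicans, 0 rose and 1 fell with age in interneurons, and 2 rose and 1 fell in pyramidal cells. Of all probe sets, 7.04% and 9.16% were called in either direction. Only Gpc2 was called in both populations. Gpc1, Gpc4, Gpc5 and Gpc6 also had an adjusted p under 0.05 with age in both, with opposite signs for Gpc1, Gpc4 and Gpc6. Gpc2 (cerebroglycan), a glypican of the developing nervous system, had the largest measured change with age in pyramidal cells of the 44 genes. Its values were 8.47, 8.12 and 8.13 in IN P10, 11.12, 11.27 and 11.02 in IN P0, 8.11, 8.35 and 7.78 in Pyr P12, and 11.87, 11.73 and 11.86 in Pyr P0. The 6 newborn arrays were all high and the 6 older arrays all low, and the 2 older groups overlapped. Gpc2 fell by 2.90 ± 0.13 on the log2 scale in interneurons (7.44-fold lower in IN P10, adjusted p = 7.54e-10) and by 3.74 ± 0.13 in pyramidal cells (13.4-fold lower in Pyr P12, adjusted p = 3.48e-11). At P0 it was lower in interneurons by 1.6-fold (log2 -0.68 ± 0.13, adjusted p = 0.00126), which was not called. The same 3 of 7 pyramidal markers fell in interneurons and 1 (Nrgn) rose, and their part in the fall of Gpc2 there was not tested.

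The Gpc2 window is shown because the transcript fell in both populations (RefSeq, GRCm38.p6, chr5:138279888-138280187, minus strand). Capitals mark 3 GC boxes, 2 CCAAT boxes and 1 E-box, and no TATA box or AP-1 letters were found.
Gpc2: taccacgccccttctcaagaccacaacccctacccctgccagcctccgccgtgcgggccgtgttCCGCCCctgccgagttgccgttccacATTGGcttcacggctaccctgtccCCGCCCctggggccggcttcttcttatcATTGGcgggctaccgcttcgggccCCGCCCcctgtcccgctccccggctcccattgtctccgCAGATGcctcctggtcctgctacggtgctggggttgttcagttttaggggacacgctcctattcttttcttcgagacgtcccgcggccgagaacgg

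Of the other glypicans, Gpc3, Gpc4 and Gpc5 were called between the populations at 1 age each. Gpc5 read 8.11, 8.11 and 8.21 in IN P10, 7.73, 7.85 and 7.81 in IN P0, 9.66, 9.52 and 9.77 in Pyr P12, and 8.37, 8.77 and 8.58 in Pyr P0, with no overlap between any 2 groups. It rose in pyramidal cells (log2 1.08 ± 0.09, 2.12-fold, adjusted p = 2.18e-07; 0.98 and not called without Pyr P0 replicate A) and was 2.85-fold lower in IN P10 cells than in Pyr P12 (-1.51 ± 0.09, adjusted p = 1.33e-08). Gpc3, known in mouse and human as a restraint on growth, read 7.10, 7.15 and 6.98 in IN P10, 6.99, 6.83 and 6.81 in IN P0, 8.21, 8.09 and 8.40 in Pyr P12, and 6.97, 7.08 and 6.93 in Pyr P0. It was above background in Pyr P12 and in none of the other 3 groups. Against the background level it was at least 2.01-fold higher in Pyr P12 cells than in Pyr P0 (adjusted p = 1.98e-08) and at least 1.998-fold lower in IN P10 cells than in Pyr P12 (adjusted p = 7.19e-08), a bound just short of the fold threshold.

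Gpc4, which rodent astrocytes release to bring AMPA receptors to synapses, read 7.42, 7.40 and 7.34 in IN P10, 6.85, 7.05 and 6.94 in IN P0, 7.58, 7.66 and 7.69 in Pyr P12, and 8.67, 8.42 and 8.41 in Pyr P0. It was highest in newborn pyramidal cells and not above background in newborn interneurons. IN P0 was at least 2.41-fold lower than Pyr P0 (adjusted p = 2.47e-09), and in pyramidal cells the change with age of -0.86 ± 0.07 was not called. Gpc1 and Gpc6 were called in no comparison. Gpc6 came closest, with -0.99 ± 0.07 between IN P10 and Pyr P12, or 1.99-fold lower in IN P10 (adjusted p = 3.55e-08).

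None of the 4 syndecans, the transmembrane heparan sulfate proteoglycans, was called in any comparison. Sdc1 and Sdc2 came near the fold threshold with age in pyramidal cells and in opposite directions, at -0.97 ± 0.08 (adjusted p = 1.68e-07) and 0.97 ± 0.07 (adjusted p = 3e-08), both 1.96-fold. Sdc3, the syndecan best known from neurons, had group means of 12.18, 11.77, 11.46 and 11.60 in IN P10, IN P0, Pyr P12 and Pyr P0. Sdc4 stayed between 7.70 and 8.11 on all 12 arrays.

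Of the 14 basement membrane genes, 1 fell with age in interneurons (7.04% of all probe sets were called in either direction), 1 rose and 1 fell in pyramidal cells (9.16%), none was called in the older pair (5.56%), and 2 were higher in IN P0 cells than in Pyr P0 (3.64%). Their median log2 differences ran from -0.10 to -0.00 in these comparisons. The called genes were Lama4, Lamb1, Lama1 and Nid2. Both chains of the main collagen IV network were even over the groups. Col4a1 had means of 8.51, 8.43, 8.47 and 8.55 and Col4a2 of 8.77, 8.66, 8.92 and 8.81 in IN P10, IN P0, Pyr P12 and Pyr P0.

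Col4a1 and Col4a2 are transcribed in opposite directions from a shared promoter region. It is shown because they are the core of the sheet and neither was called. Their RefSeq starts (GRCm38.p6) lie 21 bases apart, and the annotated genes overlap there. Col4a1 runs down from 11312826 on the minus strand and Col4a2 up from 11312805 on the plus strand. Their windows, chr8:11312777-11313076 on the minus strand and chr8:11312555-11312854 on the plus strand, share 78 bases, given in capitals and read on opposite strands. By these starts the capitals are transcribed sequence of 1 gene or both, not a stretch between 2 starts.
Col4a1: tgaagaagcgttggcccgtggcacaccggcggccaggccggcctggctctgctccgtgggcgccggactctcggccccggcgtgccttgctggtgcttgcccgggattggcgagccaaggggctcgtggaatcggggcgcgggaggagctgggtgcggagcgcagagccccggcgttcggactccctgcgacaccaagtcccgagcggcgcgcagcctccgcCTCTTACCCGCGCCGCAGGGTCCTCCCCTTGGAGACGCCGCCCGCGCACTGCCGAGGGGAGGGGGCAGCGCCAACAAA
Col4a2: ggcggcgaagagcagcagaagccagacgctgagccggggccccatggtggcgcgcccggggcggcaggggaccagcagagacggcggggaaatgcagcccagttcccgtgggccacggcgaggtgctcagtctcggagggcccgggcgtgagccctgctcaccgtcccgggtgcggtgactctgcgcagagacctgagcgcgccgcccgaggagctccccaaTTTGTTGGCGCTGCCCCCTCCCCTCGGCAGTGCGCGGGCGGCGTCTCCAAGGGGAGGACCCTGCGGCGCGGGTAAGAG

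Laminins are trimers of an alpha, a beta and a gamma chain. Lama4, an alpha chain known from vessel basement membranes, read 8.41, 8.71 and 8.53 in IN P10, 8.53, 8.60 and 8.58 in IN P0, 9.27, 9.49 and 9.51 in Pyr P12, and 7.79, 7.87 and 7.90 in Pyr P0. The pyramidal groups lay on either side of the interneurons, whose 2 ages overlapped. Lama4 rose 2.97-fold in pyramidal cells (log2 1.57 ± 0.08, adjusted p = 1.64e-09), and in interneurons the change was -0.02 ± 0.08. Of 12 endothelial and 15 mural and fibroblast markers, none was called in this comparison, 1 and 4 were higher in Pyr P12 at an unadjusted p under 0.05, and their part in the rise of Lama4 was not tested.

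Lamb1, a beta chain of most laminins, read 9.27, 9.28 and 9.37 in IN P10, 9.18, 8.85 and 8.86 in IN P0, 8.81, 8.98 and 9.04 in Pyr P12, and 10.00, 9.90 and 9.95 in Pyr P0. The newborn pyramidal cells were above every other array. Lamb1 fell by 1.01 ± 0.09 on the log2 scale in pyramidal cells (2.01-fold lower in Pyr P12, adjusted p = 2.59e-07), at the edge of the fold threshold. Without Pyr P12 replicate A or Pyr P0 replicate A, the value was -0.94 or -0.98 and not called. Lama1, the alpha chain of the earliest embryonic laminin, read 8.21, 8.24 and 8.16 in IN P10, 8.93, 9.13 and 9.03 in IN P0, 7.65, 7.87 and 7.43 in Pyr P12, and 8.05, 7.84 and 8.06 in Pyr P0. It was highest in newborn interneurons, 2.07-fold above Pyr P0 (log2 1.05 ± 0.10, adjusted p = 1.9e-06), and without IN P0 replicate B or Pyr P0 replicate B this was 1.00 or 0.98 and not called.

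Nid2 codes for nidogen 2, a linker of laminin and collagen IV. It read 7.35, 7.35 and 7.44 in IN P10, 8.43, 8.79 and 8.69 in IN P0, 7.24, 7.31 and 7.25 in Pyr P12, and 7.29, 7.39 and 7.49 in Pyr P0. Newborn interneurons stood alone, and the other 9 arrays lay within a narrow range just below or just above background. Nid2 fell by 1.25 ± 0.08 on the log2 scale with age in interneurons (2.38-fold lower in IN P10, adjusted p = 2.87e-08) and was 2.37-fold higher in IN P0 cells than in Pyr P0 (1.24 ± 0.08, adjusted p = 6.4e-08). Nid1 passed its background level on 1 IN P10 array and 1 Pyr P12 array and on no other.

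The remaining laminin chains and proteoglycans were called in no comparison. Lama5 and Lamb2 lay within 7.93 to 8.19 and 8.26 to 8.49 over the 12 arrays. Agrn, the proteoglycan that clusters acetylcholine receptors at the neuromuscular junction, had means of 11.31, 11.85, 11.80 and 11.99 in IN P10, IN P0, Pyr P12 and Pyr P0, and its difference of -0.54 ± 0.06 with age in interneurons was 1.45-fold (adjusted p = 8.52e-06). Lama2, the alpha chain lost in a muscular dystrophy, was above background in both pyramidal groups (means 7.69 in Pyr P12 and 7.54 in Pyr P0) and in neither interneuron group (highest array 7.17 in IN P10 and 7.01 in IN P0). Perlecan (Hspg2) and Col18a1 had means between 8.30 and 8.57 and between 8.26 and 8.41, and Lamc1 between 9.47 and 9.87.

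Of the 5 other collagens, Col19a1 separated the populations. Collagen XIX is a non-fibrillar collagen made by interneurons in mouse hippocampus. Its values were 10.00, 10.01 and 9.98 in IN P10, 9.38, 9.36 and 9.55 in IN P0, 7.75, 7.81 and 7.73 in Pyr P12, and 7.79, 7.73 and 7.98 in Pyr P0. The interneuron arrays were all above the pyramidal arrays, and the pyramidal ages overlapped. It was 4.7-fold higher in IN P10 cells than in Pyr P12 (log2 2.23 ± 0.07, adjusted p = 2.51e-11) and 3.02-fold higher in IN P0 cells than in Pyr P0 (1.59 ± 0.07, adjusted p = 1.25e-09). The change of 0.57 ± 0.07 with age in interneurons was 1.48-fold and not called.

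Col12a1, a collagen that binds to the surface of fibrils, read 7.36, 7.35 and 7.32 in IN P10, 7.07, 7.05 and 7.10 in IN P0, 8.10, 8.17 and 8.12 in Pyr P12, and 7.08, 7.09 and 7.14 in Pyr P0. It was high in Pyr P12, and both newborn groups were not above background. Against that level it was at least 1.88-fold higher in Pyr P12 cells than in Pyr P0 (adjusted p = 4.34e-10), and the call was lost with each array centred on its median, where the difference was 1.00. Col6a1, Col11a1 and Col25a1 were called in no comparison. Col6a1 had means of 8.90, 8.44, 9.30 and 8.40 in IN P10, IN P0, Pyr P12 and Pyr P0 and came near the threshold with age in pyramidal cells (0.90 ± 0.09, 1.86-fold, adjusted p = 1.07e-06). Col11a1 and Col25a1 were highest in IN P10, at 9.20 and 8.65, against 8.59 and 8.09 in IN P0 (1.52-fold, adjusted p = 1.01e-06, and 1.48-fold, adjusted p = 6.91e-07).

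Decorin (Dcn) and biglycan (Bgn), small leucine-rich proteoglycans of connective tissue, were not above background on any array. Dcn read between 6.39 and 6.67 and Bgn between 6.88 and 7.17 over the 12 arrays, so no fold is given.

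Set side by side, the 2 age comparisons use different arrays. Sparcl1 and Spock3 rose in both populations, Fn1, Thbs1 and Gpc2 fell in both, Timp3 was called in opposite directions, 5 genes (Sparc, Thbs2, Hpse, Adamts5 and Nid2) were called in interneurons only, and 6 (Lama4, Lamb1, Col12a1, Spock2, Gpc3 and Gpc5) in pyramidal cells only. The shares of all probe sets with these joint patterns were not counted. Being called in 1 population and not in the other does not show a difference, so the change in interneurons minus that in pyramidal cells was tested directly. The changes run to P10 in interneurons and to P12 in pyramidal cells. Population, area and length of the interval thus cannot be told apart in this difference. By that test 12 of the 44 genes were called (27.3% of them, beside 4.86% of all probe sets). In 9 the change was more positive in interneurons (2.24% of all probe sets) and in 3 more negative (2.63%). A further 18 genes had an adjusted p under 0.05 but a difference of 2-fold or less. The 9 were Hpse, Timp3, Sparc, Sparcl1, Fn1, Lamb1, Gpc4, Thbs2 and Adamts5, and the 3 were Lama4, Nid2 and Gpc3. Gpc3 was near the fold threshold, and its -1.04 ± 0.12 became -0.99, -0.98 or -0.95, no longer called, without IN P10 replicate C, IN P0 replicate A or Pyr P12 replicate C.

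Of these, Timp3, at 2.83, had all 4 groups above background. The 3.16 ± 0.10 of Hpse (log2, adjusted p = 2.28e-10) rests on 3 groups that were not, and with values below background set to that level it was 2.07. Under the same setting the differences for Gpc4, Gpc3 and Nid2 were 1.01, -1.004 and -1.23 and stayed called, while the 0.86 of Adamts5 was not called. For Fn1 the difference of 1.47 ± 0.27 (adjusted p = 0.000805) means a smaller fall in interneurons, and for Sparcl1 the 1.58 ± 0.13 (adjusted p = 1.02e-06) a larger rise. Spock3, Thbs1 and Gpc2, called in the same direction in both populations, differed by -0.65 ± 0.15, -0.89 ± 0.15 and 0.84 ± 0.18, each under 2-fold and not called. Their adjusted p in limma was 0.00418, 0.000385 and 0.00282. Spock2, Col12a1 and Gpc5, called in pyramidal cells only, likewise stayed under 2-fold, at -0.31 ± 0.09, -0.76 ± 0.07 and -0.74 ± 0.13. Their adjusted p was 0.0158, 1.28e-06 and 0.000597. These genes thus fell short on the fold and not on the adjusted p.

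**Figure D3:**
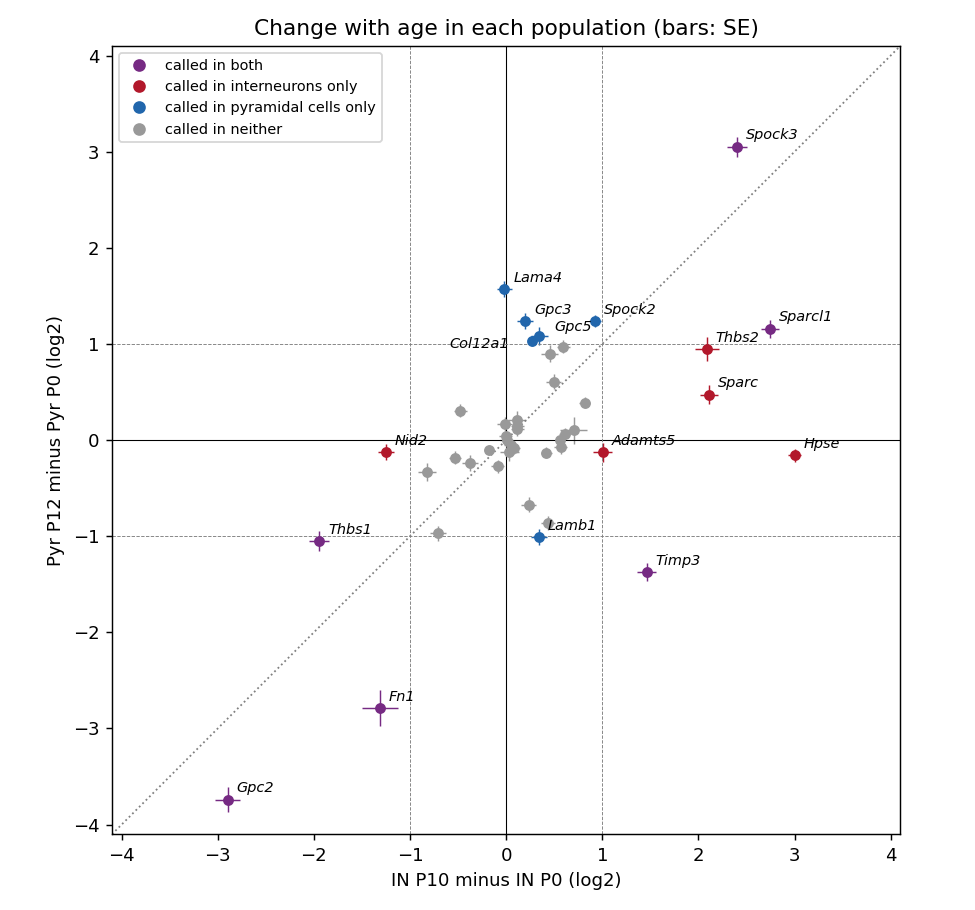
Each point is a gene, with the change in interneurons (IN P10 minus IN P0) on the x axis and that in pyramidal cells (Pyr P12 minus Pyr P0) on the y axis, both log2 with SE bars; dashed lines mark a 2-fold change and the dotted diagonal an equal change. Sparcl1 and Spock3 lie at the upper right, Fn1, Thbs1 and Gpc2 at the lower left, and Timp3 alone lies at the lower right past both thresholds.

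The 2 population comparisons also use different arrays. Thbs1, Col19a1, Sparc, Adamts5, Timp4 and Spock3 were higher in interneurons in both, and Timp3 was called in opposite directions. Hpse (higher in IN P10) and Gpc3 and Gpc5 (lower in IN P10) were called in the older pair only. Nid2 and Lama1 (higher in IN P0) and Fn1, Gpc4 and Sparcl1 (lower in IN P0) were called at P0 only. Because the interaction of age and population is 1 quantity, the tests above for Hpse, Gpc3, Nid2, Fn1, Gpc4 and Sparcl1 also cover the difference between the 2 pairs. For Gpc5 (-0.74 ± 0.13, adjusted p = 0.000597) and Lama1 (-0.49 ± 0.14, adjusted p = 0.0147) that difference was under 2-fold and not called.

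**Figure D4:**
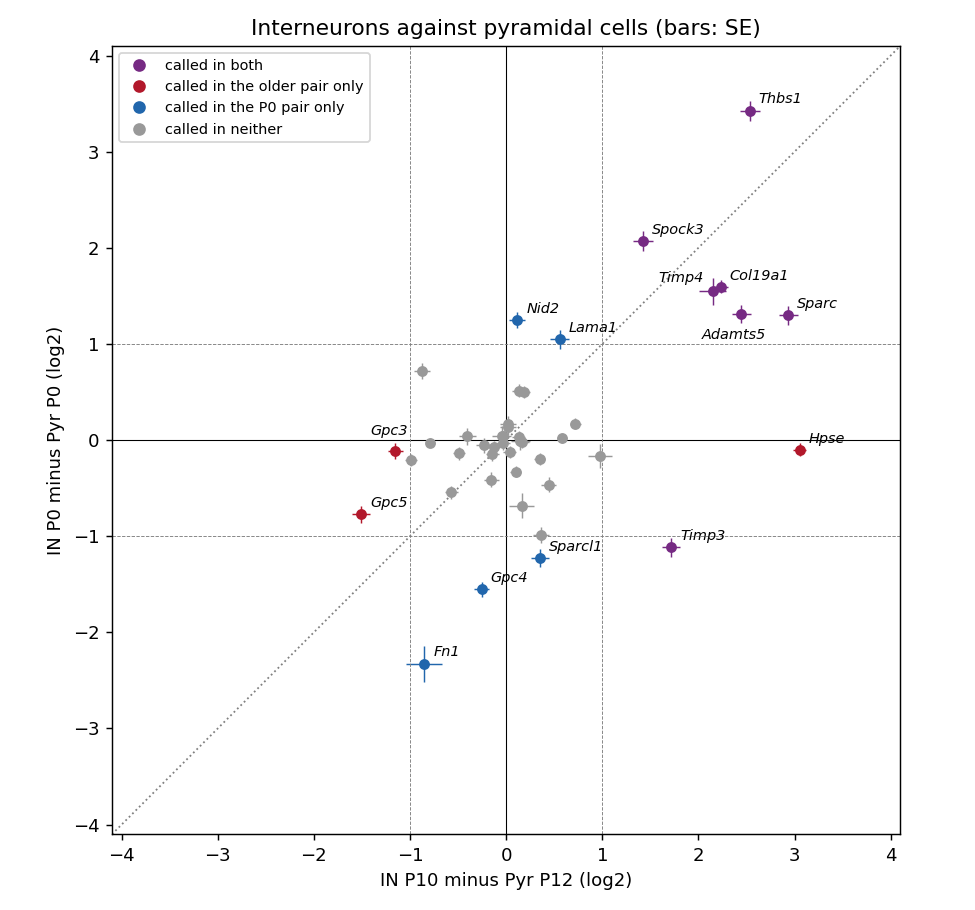
Each point is a gene, with the difference between IN P10 and Pyr P12 on the x axis and that between IN P0 and Pyr P0 on the y axis, both log2 with SE bars; dashed lines mark a 2-fold difference. Thbs1, Spock3, Col19a1, Timp4, Adamts5 and Sparc lie at the upper right, and Hpse lies near 3 on the x axis and near 0 on the y axis.

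Other genes of matrix signalling were taken from lists of receptors, collagen processing, heparan sulfate synthesis and proteases. Of all probe sets, 7.04% were called in either direction with age in interneurons and 9.16% in pyramidal cells. In the older pair it was 5.56%, and at P0 3.64%. Of 20 integrins and other matrix receptors, 0 rose and 1 fell with age in interneurons (Itgb8, log2 -1.49 ± 0.16; 8 were higher at an unadjusted p under 0.05), and 3 rose and 1 fell in pyramidal cells. Itgav, the integrin alpha V chain that pairs with several beta chains to bind fibronectin, had means of 9.47 in IN P10, 9.64 in IN P0, 10.21 in Pyr P12 and 7.92 in Pyr P0. It rose by 2.30 ± 0.14 in pyramidal cells (adjusted p = 9.24e-09) and was higher in IN P0 cells than in Pyr P0 by 1.73 (adjusted p = 4.9e-07), so that it was lowest where Fn1 was highest. In the older pair 2 receptors were higher and 3 lower in IN P10, and at P0 1 was higher and 0 lower in IN P0 (3 were lower at an unadjusted p under 0.05). Itga9 was higher in IN P10 cells than in Pyr P12 by 1.99 ± 0.11 (adjusted p = 8.78e-09), and Itga4, not above background in IN P10, was at least 2.48-fold lower (adjusted p = 1.59e-10).

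Heparan sulfate synthesis genes, which build and sulfate the chains that glypicans, syndecans, perlecan and agrin carry and heparanase cleaves, were called in every comparison. Of 19 measured, 6 rose and 0 fell with age in interneurons (5 were lower at an unadjusted p under 0.05), and 4 rose and 1 fell in pyramidal cells. The median age difference over the list was 0.51 in interneurons and 0.20 in pyramidal cells (log2), beside 0.00 and 0.06 over all probe sets. The sulfotransferase gene Ndst3 rose by 2.33 ± 0.15 in interneurons (means 10.54 in IN P10 and 8.21 in IN P0, adjusted p = 2.82e-08), and the chain-elongation gene Extl1 rose by 3.04 ± 0.05 in pyramidal cells (means 10.98 in Pyr P12 and 7.94 in Pyr P0, adjusted p = 2.19e-13). Between populations, 2 were higher and 6 lower in IN P10 cells than in Pyr P12, and 1 was higher and 7 lower in IN P0 cells than in Pyr P0, with medians of -0.39 and -0.40. Extl1 and Hs3st4 had differences of -2.97 ± 0.05 and -2.60 ± 0.12 between IN P10 and Pyr P12, and Hs6st2 and Hs3st2 had P0 differences of -2.74 ± 0.13 and -2.23 ± 0.09.

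Of 15 measured collagen processing genes, 0 were called with age in either population or at P0, with 3 higher and 5 lower at an unadjusted p under 0.05 in interneurons, 4 and 8 in pyramidal cells, and 4 and 6 at P0. In the older pair 2 were lower in IN P10, the procollagen protease gene Bmp1 (-1.57 ± 0.06) and the prolyl hydroxylase gene P4ha1 (-1.42 ± 0.08). Of 15 measured matrix proteases, 0 were called with age in interneurons (3 higher and 10 lower at an unadjusted p under 0.05) and 1 fell in pyramidal cells (Mmp11, -1.28 ± 0.08), and the median age difference was -0.30 in both populations. Adamts3, the procollagen II protease gene, was lower in interneurons in both pairs (-1.64 ± 0.11 at the older ages and -2.34 ± 0.11 at P0), and Adamts1 was higher in IN P10 cells than in Pyr P12 (1.5 ± 0.11).

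Markers of other cells were measured on the same arrays because several of the 44 genes are also made by glia and vessels. Of 12 oligodendrocyte precursor markers, 11 were higher in IN P10 cells than in Pyr P12, and 8 were higher in IN P0 cells than in Pyr P0, and their summed linear signal was 18800 to 26100 in IN P10, 23500 to 26800 in IN P0, 8120 to 8660 in Pyr P12 and 15200 to 15600 in Pyr P0. Of 13 markers of myelinating oligodendrocytes, 6 were higher in IN P10 cells than in Pyr P12, 3 in IN P0 cells than in Pyr P0 and 5 in IN P10 cells than in IN P0, with summed signals of 7780 to 10400, 3330 to 3580, 2800 to 2950 and 2290 to 2510 in IN P10, IN P0, Pyr P12 and Pyr P0. Opalin, Ermn and Aspa were not above background in any group. These lists thus moved with the genes that were higher in interneurons, among them Thbs1, Col19a1, Sparc, Adamts5, Timp4 and Spock3, and their part in those differences was not tested. The myelinating list also moved with the genes that rose with age in interneurons, among them Hpse, Sparc, Thbs2 and Timp3, and its part in that rise was likewise not tested.

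Of 14 astrocyte markers, 3 rose with age in each population and 1 was lower in interneurons in each pair. Their summed signal was 9370 to 9600 in IN P10, 5010 to 5590 in IN P0, 15100 to 15300 in Pyr P12 and 4920 to 5130 in Pyr P0, and 11 of the 14 were above background in every group, while Aqp4, Gja1 and Gjb6 were in none. The 3 that rose were Slc4a4 (2.48), Atp1b2 (1.37) and Aldoc (1.29) in interneurons, and Slc1a2 (4.17), Atp1b2 (1.51) and Aldh1l1 (1.29) in pyramidal cells, all log2. Slc1a2 and Atp1b2, with Pyr P12 means of 12.72 and 12.24, weigh heavily in the linear sum there. Over the 14 markers the median age difference was only 0.17 in interneurons and 0.30 in pyramidal cells (log2). With an unadjusted p under 0.05, 7 of them rose and 3 fell in interneurons. In pyramidal cells 9 rose and 3 fell by that threshold. The summed signal, but not every marker, thus moved with the genes that rose with age, among them Sparcl1 and Spock3. The part of these markers in that rise was not tested. None of 13 microglial, 12 endothelial and 15 mural and fibroblast markers was called in any comparison. At an unadjusted p under 0.05, 8 microglial and 4 mural markers were higher in Pyr P12 cells than in Pyr P0, and at most 4 of any of these lists, in either direction, in the other comparisons. Tek, Kdr, Emcn, Slco1a4 and Ocln of the endothelial list and Vtn, Anpep, Lum, Ogn, Foxc1 and Zic1 of the mural and fibroblast list were not above background in any group. The endothelial sum lay between 1710 and 1980 on all arrays and the mural and fibroblast sum between 2510 and 2930.

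**Figure D5:**
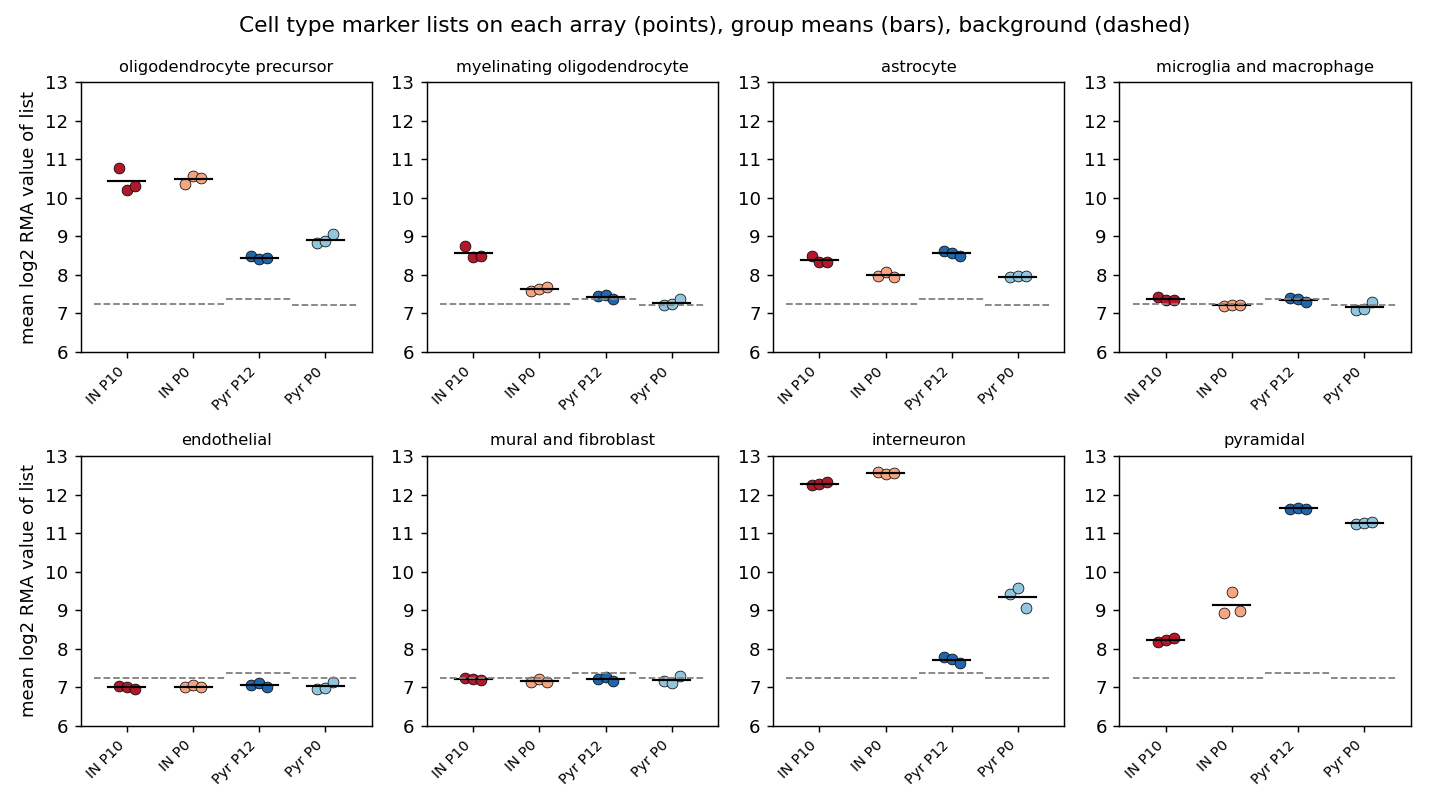
Points are the mean log2 RMA value of each marker list (y axis) on the 3 arrays of IN P10, IN P0, Pyr P12 and Pyr P0 (x axis), bars are group means, and dashed lines are the background level. The oligodendrocyte precursor list is higher in both interneuron groups, and the endothelial and the mural and fibroblast lists stay close to background in all 4 groups.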

How the data were processed

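The 44 genes, their classes and the gene lists were chosen with earlier results of these data known. Neurons were dissociated with papain after the meninges were removed and sorted by GFP, and amplified RNA was hybridised to Affymetrix Mouse Gene 1.0 ST arrays. The authors normalised the scans with RMA, and the deposited values are log2 levels of 28192 probe sets on 12 arrays. Quantile normalisation gives all arrays one distribution, so a change in total RNA per cell is not visible, and the number of arrays limits the precision. The RMA version, the annotation release and the genome build of the probe sets are not given in the sources used here.

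The platform annotation gave 1 symbol for 21640 probe sets, several for 1321 (tested, with no gene named) and none for 5231 (left out of the tests). Entrez identifiers of 21553 matched the RefSeq table of GRCm38.p6, which changed 0 symbols. One linear model of the 4 groups was fitted with limma 3.58.1 under R 4.3.3 (lmFit and eBayes, 8 residual degrees of freedom), with Benjamini-Hochberg adjustment over 22961 probe sets and the study's thresholds (adjusted p under 0.05, fold over 2). A fold against a group not above background is a lower bound against the background level, which was averaged over the arrays of that group. The adjusted p beside such a bound is that of the measured values. Values on every array are given for the 21 called genes, and of each pathway list at most the 2 most changed called genes of a comparison are named. The script was tested on simulated data. The alternatives were SAM (the study's test), the 2 groups alone, a replicate block, limma-trend with robust eBayes, a filter on dim probe sets, median centring, a fold over 1.5 and leaving out each array. Setting values below background to that level was added after seeing the data. Promoter windows are RefSeq sequences.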

Additional observations from a re-analysis of the deposited data

Results flagged for a closer look

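Of the 44 genes, 12 changed with age differently in interneurons and in pyramidal cells, by limma's test of the difference itself (adjusted p under 0.05 and over 2-fold). A further 18 had an adjusted p under 0.05 with a difference of 2-fold or less and are not listed here. The intervals (to P10 and to P12) and the named areas also differ, and cannot be told apart from population here. The change in interneurons (IN P10 minus IN P0) minus that in pyramidal cells (Pyr P12 minus Pyr P0) was, on the log2 scale, 3.16 for Hpse, 2.83 for Timp3, 1.64 for Sparc, 1.58 for Sparcl1, 1.47 for Fn1, 1.35 for Lamb1, 1.30 for Gpc4, 1.14 for Thbs2 and 1.13 for Adamts5. It was -1.59 for Lama4, -1.13 for Nid2 and -1.04 for Gpc3. For Hpse, Adamts5, Gpc4, Gpc3 and Nid2 at least 1 group was not above background. With each value below background set to that level, an alternative chosen after seeing the data, these became 2.07, 0.86, 1.01, -1.004 and -1.23, and the call for Adamts5 was lost. Timp3 combined a rise in interneurons with a fall in pyramidal cells. Hpse and Adamts5 rose in interneurons and were not above background in pyramidal cells. The Adamts5 rise lost its call without IN P10 replicate B or C or IN P0 replicate A. Sparc and Thbs2 rose in interneurons and less so in pyramidal cells. There the rise was 0.47 and 0.95 (adjusted p = 0.000935 and 1.84e-05), under 2-fold and not called. Lama4 and Gpc3 rose in pyramidal cells with no called change in interneurons.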

How the results depend on the processing

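Over the 57 called differences of the 44 genes, 1040 of 1059 values under the alternatives kept their direction and their call, 19 lost the call and 0 reversed. Many of the 1059 could not move the fold or direction. SAM, the fit of 2 groups, the replicate block, the trended eBayes step and the filter keep each log2 difference. In a comparison of 2 groups, so does leaving out an array of another group. Such values vary the significance step alone, so the 1040 overstates how far the folds were tested. The 19 belong to 10 differences (Adamts5 with age in interneurons, at P0 and in the interaction, Lamb1, Col12a1, Thbs1 and Gpc5 with age in pyramidal cells, Gpc3 in the older pair and in the interaction, and Lama1 at P0), and each kept an adjusted p under 0.05. Of them, 4 were lost with values below background set to the background level, chosen after seeing the data (Col12a1 0.91, Gpc3 -0.998 in the older pair, Adamts5 0.83 at P0 and 0.86 in the interaction), which left 1 gene lower in IN P10 cells than in Pyr P12. SAM lost 0 calls, as did limma fitted to only the 2 groups compared, a trended and robust eBayes step and a filter that left 16334 probe sets, and median centring lost 1 (Col12a1). With a fold over 1.5 in place of 2, the counts became 12 in place of 7 higher in IN P10 cells than in IN P0, 11 in place of 7 higher and 8 in place of 5 lower in Pyr P12 cells than in Pyr P0, 6 in place of 2 lower in IN P10 cells than in Pyr P12, 7 in place of 4 lower in IN P0 cells than in Pyr P0, and 8 in place of 3 with a more negative change in interneurons. Leaving out each array in turn gave 3 to 6 genes lower in Pyr P12 cells than in Pyr P0, against 5 with all arrays, and the 3 came without Pyr P12 replicate A, where Lamb1 and Thbs1 fell short of a 2-fold change.

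Pairing of arrays by replicate letter was weak at most and is not excluded. The correlation of deviations between arrays of the same letter ran from -0.18 to 0.19 over 18 pairs (median 0.04) and was over 0.1 in 6. Between arrays of different letters it ran from -0.26 to 0.30 over 36 pairs (median -0.02) and was over 0.1 in 6. Of 12 arrays, 3 correlated best with their own letter in every other group. The replicate block left the counts at 7 higher and 4 lower in IN P10 cells than in IN P0, 7 and 5 in Pyr P12 cells than in Pyr P0, 8 and 2 in the older pair, 8 and 4 at P0, and 9 and 3 in the interaction. The alternative with a gene's second probe set gave no value, since 0 of the 44 genes had one, and SAM and the fit of 2 groups do not apply to the interaction. Signal near background limits Nid1, Nid2, Lama2, Col12a1, Gpc3, Gpc4, Hpse, Adamts5 and Timp4, and Dcn and Bgn were below it on all arrays.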
